A study of Mus musculus with 31 samples.

Results

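Accessible chromatin was examined at 10 genes that mark epithelial cells, in a fibroblast line in which such genes would usually be silent. The 10 genes were taken from a list and not by a rule on their signal. This list and the comparison lists below were, however, chosen with earlier results of these data known. The genes were Cdh1, Epcam, Cldn4, Krt8, Krt18, Krt5, Krt14, Grhl2, Ovol1 and Esrp1, out of 21938 protein-coding genes of the mouse annotation. The question was which of them had ATAC-seq peaks within 1 kb of a transcription start site (TSS), elsewhere in the gene, or outside it within 25 kb, and which had none.

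The peaks come from a single ATAC-seq library of the parental NIH-3T3 line, mouse embryonic fibroblasts, which carried no TF transgene. The labels list no doxycycline for it, whereas the methods describe doxycycline treatment of NIH-3T3 cells before ATAC-seq without setting the parental line apart, so its treatment is not settled. In ATAC-seq the transposase Tn5 cuts and tags DNA that nucleosomes leave free, and here 50000 cells were treated with 0.5 µM Tn5 and the DNA amplified over 12 PCR cycles. Not analysed here were 30 further samples, in which NIH-3T3 cells overexpressed one of 13 TFs or only rtTA3G. A single library gives neither replicate error nor a test, so each value below describes this library.

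Epithelial cells form sheets held together by E-cadherin junctions and sealed by claudins, and their cytoskeleton is built from keratin filaments, each a pair of one type I and one type II keratin. Simple epithelia use Krt8 with Krt18, and the basal layer of stratified epithelia uses Krt5 with Krt14. A small set of TFs and splicing factors, among them the grainyhead-like and OVOL proteins and ESRP1, keeps this program on, whereas SNAI and ZEB repressors bind E-boxes (CAGGTG) in epithelial promoters and shut it off in mesenchymal cells.

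Of the 10 genes, 3 had a peak within 1 kb of a TSS, namely Krt14, Krt8 and Grhl2, which is 30.0%, whereas 53.7% of all protein-coding genes had one. A peak in the gene body, more than 1 kb from every TSS of the gene, was found in 2 of 10, Cdh1 and Grhl2, beside 34.3% of coding genes. Neither kind was found in 6 of 10 (Epcam, Cldn4, Krt18, Krt5, Ovol1 and Esrp1), beside 35.6%. The shares of 34.3% and 35.6% are not matched for gene length. Among genes of 0.5 to 2 times the length of each, 97.8% had no body peak for Cldn4 and 94.1% for Krt18. That share was 90.5% for Krt5, 80.5% for Ovol1, 74.3% for Epcam and 40.4% for Esrp1. Outside the gene within 25 kb, 9 of 10 had at least 1 peak, all but Krt5, beside 71.4%. The gene start itself lay inside a peak for 1 of 10, Krt14, and for 42.5% of coding genes.

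The promoter count depended on which transcript starts were used. With RefSeq starts, chosen after seeing the data, only Krt14 kept a promoter peak, because the peak near Krt8 then lay just over 1 kb from its start and RefSeq lists no start next to the Grhl2 peaks. Krt14 was also the only gene whose peak overlapped a TSS. Each peak is given with its fold, the ratio of the fragment pileup at its summit to the local expected pileup with 1 added to each, and with the −log10 q of the peak caller. The number of fragments at the summit was solved from the deposited values, and its 95% Poisson interval covers counting error only. The lowest summit of the library held 10 fragments, but peaks were called against the local expected pileup. This was 9.06 at 1 flanking peak of Ovol1, beside a library background of 2.81. A gene without a peak therefore lacked a call, which is not the same as lacking fragments. RNA was not measured in these data, so a peak is no sign of expression here.

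Together the 10 genes had 49 distinct peaks, 3 of which lay in the windows of both Krt8 and Krt18. Their median fold was 5.52, with a lowest of 2.93, below the median of 6.04 over all 63456 peaks of the library. Of the 49, 19 were at a TSS or in the body of one of the 10 genes, with a median fold of 5.40. The other 30 lay outside the genes, 7 of them within 1 kb of the TSS of another gene and 23 elsewhere. For comparison, the 13923 peaks at TSSs of coding genes had a median fold of 8.35 and the 47192 peaks more than 1 kb from any TSS one of 5.54.

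**Figure D1:**
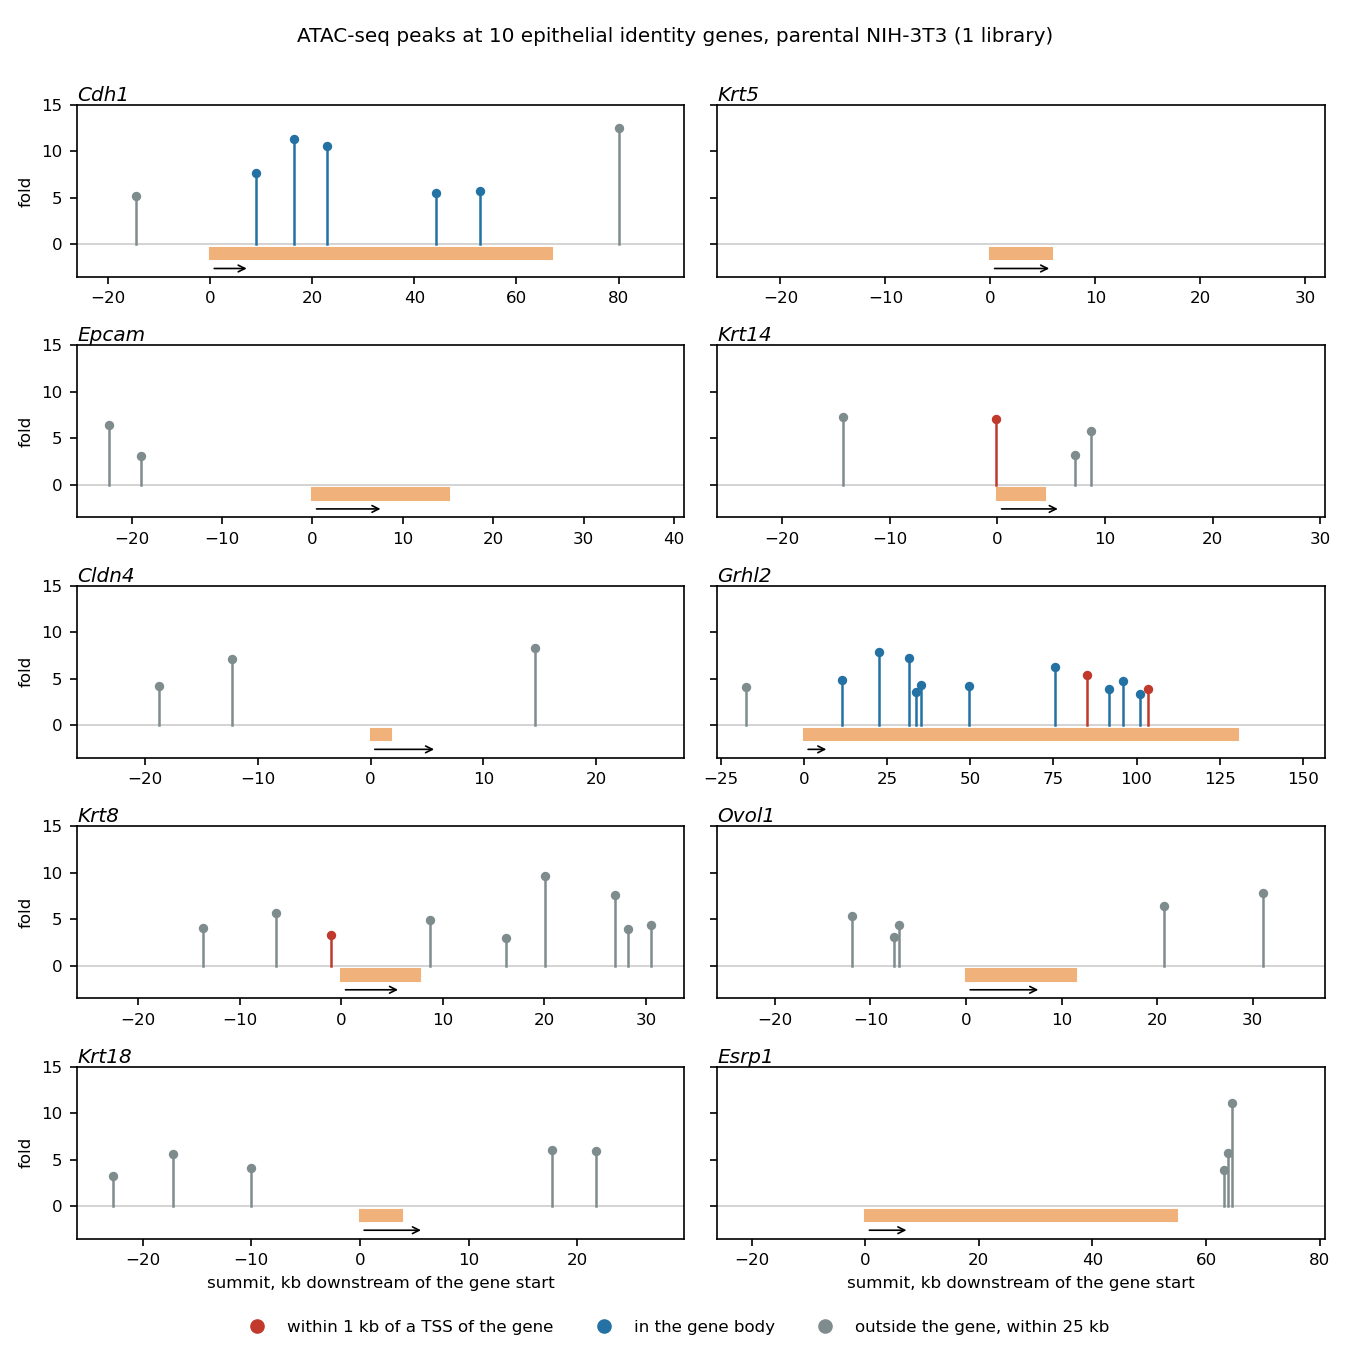
Peaks at each of the 10 genes in parental NIH-3T3. The horizontal axis gives the summit's distance from the gene start in kb in the direction of transcription (arrow, with the gene as an orange bar), and the vertical axis the fold of each peak, red within 1 kb of a TSS of the gene, blue in its body and grey outside it within 25 kb. Krt14 had a red peak at its start, Cdh1 and Grhl2 had rows of peaks inside the gene, and the Krt5 window was empty.

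Sequences are shown for 3 promoters that stayed without a peak and for the peak closest to the Krt8 start, which hold some of the motifs counted below. The Krt18, Krt8 and Krt14 promoters are counted but not printed. Promoter sequences are those of RefSeq on GRCm38.p6, from 250 bases before to 50 after the start, and were given for 6 of the 10 genes (Cldn4, Epcam, Krt18, Krt5, Krt8 and Krt14, the last for the start of its shorter transcript). None of these 6 windows overlapped a peak. Capitals mark matches on either strand to the AP-1 motif (TGACTCA) and to the E-box CAGGTG, and all sequences run 5′ to 3′ on the strand of the gene.

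The Cldn4 promoter, chr5:134946885-134947184 on the minus strand, holds 2 AP-1 matches and 2 E-boxes.
Cldn4 promoter: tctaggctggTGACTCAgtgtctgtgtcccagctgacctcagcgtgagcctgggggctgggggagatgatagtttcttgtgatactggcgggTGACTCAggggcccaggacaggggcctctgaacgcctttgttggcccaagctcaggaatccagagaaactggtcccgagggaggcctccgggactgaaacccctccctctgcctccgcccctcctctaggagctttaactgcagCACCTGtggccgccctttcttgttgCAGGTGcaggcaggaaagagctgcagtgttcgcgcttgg
The Epcam promoter, chr17:87635729-87636028 on the plus strand, holds 2 E-boxes.
Epcam promoter: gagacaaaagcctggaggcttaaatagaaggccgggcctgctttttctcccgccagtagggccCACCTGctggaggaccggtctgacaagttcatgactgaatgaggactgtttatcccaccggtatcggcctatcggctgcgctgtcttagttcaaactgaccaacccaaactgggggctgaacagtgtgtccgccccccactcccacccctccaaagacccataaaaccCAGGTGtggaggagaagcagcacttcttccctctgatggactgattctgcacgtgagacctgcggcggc
The Krt5 promoter, chr15:101712856-101713155 on the minus strand, holds 1 E-box.
Krt5 promoter: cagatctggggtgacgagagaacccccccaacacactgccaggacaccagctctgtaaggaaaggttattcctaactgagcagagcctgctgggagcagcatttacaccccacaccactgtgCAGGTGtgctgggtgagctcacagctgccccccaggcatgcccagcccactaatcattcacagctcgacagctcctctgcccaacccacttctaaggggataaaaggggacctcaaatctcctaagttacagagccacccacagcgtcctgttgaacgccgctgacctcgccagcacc
The peak next to Krt8, chr15:102005411-102005547 on the minus strand, is 137 bp long and holds 2 AP-1 matches and 1 E-box.
Krt8 peak: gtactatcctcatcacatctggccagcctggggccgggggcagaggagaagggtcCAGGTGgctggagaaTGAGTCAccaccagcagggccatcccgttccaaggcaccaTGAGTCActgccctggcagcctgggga

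An E-box was present in 5 of these 6 promoters, all but that of the shorter Krt14 transcript, beside 20.2% of 32851 RefSeq promoters of the same length. Among promoters under no peak the share was 22.9%, and among promoters under a peak 15.2%. An AP-1 match was present in 1 of 6, Cldn4, beside 5.20% of all promoters, 5.56% of those under no peak and 4.54% of those under a peak. The grainyhead motif (AACCGGTT) was in none of the 6, beside 0.146%, and the TEAD motif (GGAATG) in 1 of 6, Krt14, beside 14.7%. A match describes the letters and does not show that a factor binds.

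Cdh1 encodes E-cadherin, the adhesion protein of epithelial junctions, and lies at chr8:106603351-106670246 on the plus strand. Its start was 8810 bp from the nearest peak, and no peak came closer than 8018 bp to any of its annotated starts. Inside the gene, however, lay 5 peaks, all in introns. Their summits were 8902, 16359, 22904, 44237 and 52770 bp downstream of the start, the first 4 in intron 2 and the last in intron 5. Along the gene their folds were 7.63, 11.3, 10.6, 5.52 and 5.78, with −log10 q of 18.9, 55.4, 46.3, 9.05 and 9.92. The 2 deepest held 79 fragments (62.5 to 98.5) over 762 bp and 68 fragments (52.8 to 86.2) over 747 bp. Fold 11.3 exceeded that of 89.8% of all peaks away from TSSs, and fold 10.6 that of 87.3%, so these were among the higher peaks of the fibroblast genome, not marginal calls.

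Genes of between 0.5 and 2 times the length of Cdh1 numbered 5346, and 64.7% of them had a body peak, with a median of 1. As many body peaks as Cdh1 or more were found in 11.2% of them, and in 9.43% of the 2110 whose own start was more than 1 kb from a peak. Within 50 bp of the 5 Cdh1 summits there was no AP-1, E-box, grainyhead or TEAD match. Outside the gene, a peak of fold 12.5 (−log10 q 41.4) lay 12769 bp away at the TSS of Tango6, a neighbouring gene, and a peak of fold 5.25 lay 14364 bp away on the other side.

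Epcam encodes an epithelial cell adhesion molecule of the cell surface and lies at chr17:87635979-87651129 on the plus strand. It had no peak at its starts or in its body, and the nearest lay 18973 bp from its start. That peak was weak, with fold 3.09, −log10 q 2.22 and 11 fragments (5.49 to 19.7). Another peak upstream, 22343 bp from the gene, had fold 6.40, −log10 q 14.4 and 29 fragments (19.4 to 41.6), as many as the median peak of the library.

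Cldn4 encodes claudin-4, a tight junction protein, in a short gene at chr5:134945119-134946934 on the minus strand. Its start was 12119 bp from the nearest peak, of fold 7.16, and the gene held none. The highest peak of its window, of fold 8.28 (−log10 q 29.1) and 50 fragments (37.1 to 65.9), lay 12165 bp away at TSSs of Mettl27 and 9030607J07Rik. A further peak of fold 4.24 lay 18632 bp away. The promoter printed above, with its pair of AP-1 matches, overlapped no peak.

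The simple keratins Krt8 and Krt18 are neighbours on chromosome 15, Krt8 at chr15:101996698-102004482 on the minus strand and Krt18 at chr15:102028180-102032027 on the plus strand. Krt8 is type II and Krt18 its type I partner, and the only type I gene in the type II cluster. The peak whose sequence is given above lay 929 bp upstream of the Krt8 start. Its fold was 3.25, its −log10 q 4.67, and its summit held 22 fragments (13.8 to 33.3) where 6.07 were expected. The summit lay inside another annotated gene, Gm36026. Only 6.41% of the peaks at TSSs of coding genes had a lower fold, so by fold the Krt8 promoter peak was close to the weakest end. With a limit of fold 5 or of q 1e-05 it was lost.

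Around Krt8 there were 8 more peaks within 25 kb, none at the TSS of another gene. The highest, of fold 9.65 (−log10 q 42.6) and 67 fragments (51.9 to 85.1), lay 11786 bp beyond the end of the gene and held a TEAD match. The closest on that side began 859 bp from the gene's end, with fold 4.86. Krt18 had no peak at its start or in its body, and its start was 9812 bp from the nearest. Its 5 flanking peaks had folds of 3.25 to 6.03, the highest with −log10 q 16.0 and 35 fragments (24.4 to 48.7). In the 11 peaks of the pair together, AP-1 matches were present at 4 summits (36.4%), that of the Krt8 promoter peak among them. The share was 21.7% of all peaks and 26.4% of those more than 1 kb from any TSS.

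The basal keratins Krt5 and Krt14, which pair with each other in filaments, stood at opposite ends of the set. Krt14, the type I partner, lies at chr11:100203162-100207548 on the minus strand, and a peak of 421 bp at chr11:100207429-100207849 covered its start. The fold was 7.07 and the −log10 q 24.2, and the summit, 106 bp upstream of the start, held 47 fragments (34.5 to 62.5) where 5.79 were expected. Of the peaks at TSSs of coding genes, 39.2% had a lower fold. The start of the shorter Krt14 transcript, 1399 bp from that peak, was not covered. Krt14 had 3 more peaks within 25 kb, of fold 5.80, 3.21 and 7.28, and that of fold 5.80 held an AP-1 match.

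Krt5, the type II partner, lies at chr15:101707070-101712898 on the minus strand, and its start was 228974 bp from the nearest peak, the farthest of the 10 genes and of all 53 keratin genes. It sat in a peak-free stretch of 468595 bp, chr15:101473277-101941871, which held 21 coding genes, 18 of them keratins. Coding genes whose start was outside a peak, with peaks on both sides along the chromosome, numbered 12512. Of these, 24.0% lay in a longer stretch, and the median was 77.0 kb. The stretch began at a peak of fold 7.22 (−log10 q 19.4) at the TSS of Krt86, a hair keratin, and ended at one of fold 7.32 (−log10 q 29.7) away from any TSS. The 2 genes of this basal pair therefore differed, Krt14 having a peak of ordinary height at its start and Krt5 none over the whole middle of its cluster.

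**Figure D2:**
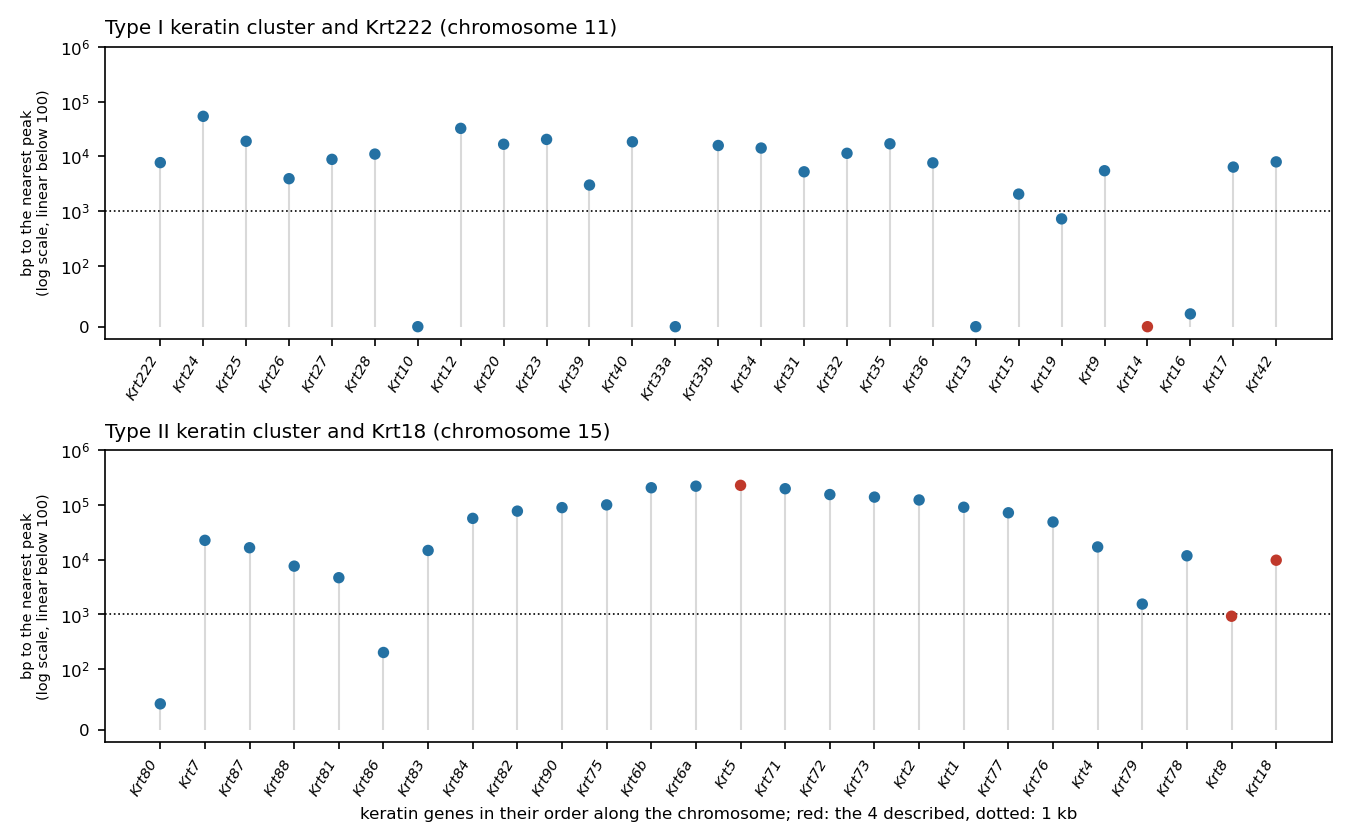
Distance from the closest TSS of each keratin gene to the nearest peak, in bp on a log scale that is linear below 100, with genes in chromosome order, the 4 described keratins in red and a dotted line at 1 kb. Distances on chromosome 15 rose to 228974 bp at Krt5 in the middle of the type II cluster, while on chromosome 11 peaks were scattered between the type I genes and none was farther than 54096 bp.

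Across the family, 9 of 53 keratin genes (17.0%) had a promoter peak, 6 of 27 on chromosome 11 and 3 of 26 on chromosome 15. The highest folds were those of Krt16 (11.3), a keratin of stressed epidermis, Krt19 (7.35), a simple keratin, Krt86 (7.22), Krt14 (7.07) and Krt13 (6.88), a keratin of mucosal epithelia. Krt14 was the only one of the 53 whose gene start lay inside a peak. All 53 keratin starts were CpG-poor, and among CpG-poor coding genes 29.0% had a promoter peak. The median distance to a peak was 7709 bp on chromosome 11 and 53008 bp on chromosome 15. Near-identical keratin genes such as Krt6a and Krt6b share sequence, and reads that fit both were removed with the other multiply mapped reads, so an absent peak there is uncertain.

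Grhl2 encodes a grainyhead-like TF that activates Cdh1 and Cldn4 in epithelia. It is the longest of the 10 genes, with 130534 bp at chr15:37233036-37363569 on the plus strand. Its main start was 11437 bp from the nearest peak. The 2 peaks that counted as promoter peaks lay at starts of shorter transcripts deep in the gene. The first, in intron 8, was 240 bp from the start of a non-coding processed transcript and had fold 5.40, −log10 q 12.1 and 29 fragments (19.4 to 41.6). The second, in intron 11, was 797 bp from a protein-coding start and had fold 3.94, −log10 q 4.31 and 14 fragments (7.65 to 23.5). Neither covered the start it was counted for.

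A further 10 peaks lay in the body of Grhl2, all in introns, 5 of them in intron 1. In order along the gene their folds were 4.85, 7.91, 7.19, 3.55, 4.28, 4.18, 6.25, 3.88, 4.73 and 3.32, with a median of 4.51. The −log10 q in the same order were 8.40, 19.6, 22.6, 5.21, 8.01, 5.01, 15.3, 5.45, 7.82 and 2.80. The deepest held 43 fragments (31.1 to 57.9) and the shallowest 12 (6.20 to 21), so the Grhl2 peaks were more numerous but lower than those of Cdh1, whose median fold was 7.63. Among 3195 genes of like length, 77.8% had a body peak with a median of 2, and 6.67% had as many as Grhl2. Among the 1342 of these whose start was more than 1 kb from a peak, 4.77% had as many.

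AP-1 matches were present at 4 of the 10 Grhl2 body summits, all in intron 1, and an E-box at 1, in intron 9. Outside the gene, 1 peak of fold 4.15 (−log10 q 6.30) lay 17358 bp upstream and held an AP-1 match.

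Ovol1 encodes a zinc finger repressor of mesenchymal genes and lies at chr19:5549136-5560646 on the minus strand. Its nearest peak was 6664 bp from its start, at the TSS of the neighbouring gene Ap5b1, with fold 4.41 and 42 fragments (30.3 to 56.8). A second Ap5b1 peak had fold 3.08. The highest of its 5 flanking peaks, of fold 7.77 (−log10 q 23.2), lay 19277 bp beyond the gene. Ovol1 had the most CpG-rich start of the 10 genes and still no peak within 1 kb of it.

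Esrp1 encodes an RNA-binding protein that sets the epithelial splice forms of many transcripts and spans 54851 bp at chr4:11331933-11386783 on the minus strand. Its main start was 36908 bp from the nearest peak, and the closest of its annotated starts 20647 bp. In contrast to Cdh1, a gene of similar length, it had no peak in its body, as did 40.4% of 6001 genes of like length. Its 3 flanking peaks lay beyond its end, within 9332 bp of it. The highest, of fold 11.1 (−log10 q 40.1) and 56 fragments (42.3 to 72.7), and the next, of fold 5.74, were at TSSs of Dpy19l4 and Gm26663. Esrp1 was the only coding gene in a peak-free stretch of 100092 bp. Of the 12512 coding genes outside peaks and with peaks on both sides, 45.5% lay in a longer stretch.

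**Figure D3:**
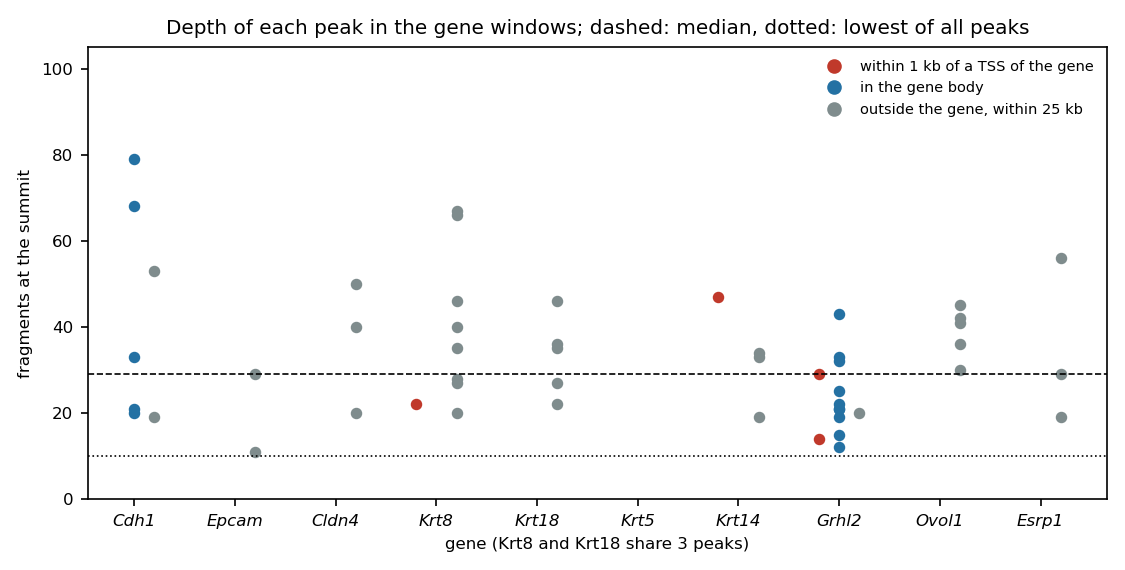
Fragments at the summit of each peak by gene, red within 1 kb of a TSS, blue in the body and grey outside within 25 kb, with the median of 29 and the lowest of 10 fragments over all peaks as dashed and dotted lines. The deepest Cdh1 intron peak held 79 fragments, the Krt14 start peak held 47, and Krt5 had no point.

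CpG content set another contrast. The ratio of observed to expected CpG over 500 bases to either side of the gene start was 0.6 or more, here called CpG-rich, for 3 genes, Cdh1 (0.72), Grhl2 (0.76) and Ovol1 (0.99). Such starts are usually accessible in any cell, and 82.8% of CpG-rich coding genes had a promoter peak, or 80.5% had one within 1 kb of the gene start. None of these 3 genes had a peak within 1 kb of the gene start. The remaining 7 ratios were 0.58 for Esrp1, 0.55 for Krt18, 0.47 for Epcam, 0.38 for both Cldn4 and Krt8, 0.29 for Krt14 and 0.27 for Krt5. Of these 7 CpG-poor genes, 2 had a peak within 1 kb of the gene start, Krt14 and Krt8, beside 22% of CpG-poor coding genes.

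**Figure D4:**
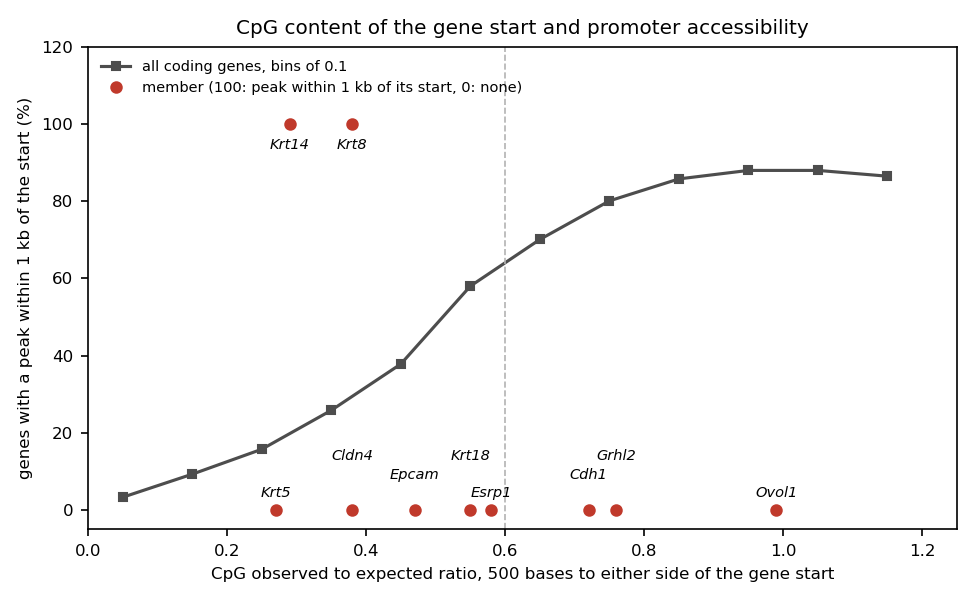
Share of coding genes with a peak within 1 kb of the gene start (vertical axis, %) by CpG observed to expected ratio of the start (horizontal axis, bins of 0.1, grey line), with the 10 genes as red points at 100 where they had such a peak and at 0 where they had none. The share rose from 3.26% in the lowest bin to 88.0% near a ratio of 1, and the CpG-rich Cdh1, Grhl2 and Ovol1 are at 0.

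AP-1, a family of dimeric activators, was the commonest of the motifs searched in the peaks of the 10 genes. It was found within 50 bp of 11 of 49 summits (22.4%), beside 21.7% of all peaks and 26.4% of those more than 1 kb from any TSS. E-boxes were found at 3 of 49 (6.12%), beside 3.69%. TEAD matches were at 1 of 49 (2.04%), beside 8.39%, and grainyhead matches at none, beside 0.0473% (30 of 63456 peaks). The shares for AP-1 were thus nearly those of the whole library.

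The wider epithelial program was read from a list of 38 further genes, of which 9 (23.7%) had a promoter peak. By role these were 2 of 9 desmosome and adhesion genes, 1 of 9 tight junction genes, 1 of 6 surface proteins and proteases, 3 of 6 polarity and trafficking genes and 2 of 8 TFs and splicing factors. The highest fold was that of Grhl1 (17.1, −log10 q 118), a grainyhead-like TF. Next came Tjp3 (10.6), whose peak also lay within 1 kb of a TSS of its neighbour Pip5k1c, then the junction protein gene Jup (9.52), the polarity gene Llgl2 (6.88) and the TF gene Elf3 (6.09). The share with a gene start inside a peak was 7.89%. Of the 20 CpG-rich genes of the list, 5 had a promoter peak, beside 82.8% of CpG-rich coding genes, and 29 of the 38 had none.

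The fibroblast label was set beside 22 mesenchymal genes, and 20 of them (90.9%) had a promoter peak, beside 53.7% of all protein-coding genes. This list too was chosen with earlier results of these data known, so it is not an independent check of the label. The highest folds were those of Snai2 (11.7), Fn1 (10.5), Twist1 (10.1), Snai1 (9.51) and Twist2 (9.06), that is, fibronectin and 4 TFs of mesenchymal cells. The median fold of the 20 genes was 7.05, below the 9.86 of all coding genes with a promoter peak. The lowest was that of Thy1 (3.41). All 7 mesenchymal TFs of the list had a promoter peak, but 6 of them were CpG-rich, and 82.8% of CpG-rich coding genes had one. Of the 11 cytoskeleton and matrix genes, only 1 was CpG-rich, and 9 had a promoter peak, beside 29.0% of CpG-poor coding genes. The genes without were Postn and Tagln. Cdh2, the N-cadherin gene and counterpart of Cdh1, belongs to this list, and the choice to name it here was made after its values were seen. It had a promoter peak of 2084 bp with fold 7.62 and 7 body peaks, whereas Cdh1 had body peaks alone. Cdh2 is the longer gene, at chr18:16588877-16809246, so the counts of body peaks are not alike. Both starts are CpG-rich, with ratios of 0.87 for Cdh2 and 0.72 for Cdh1.

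**Figure D5:**
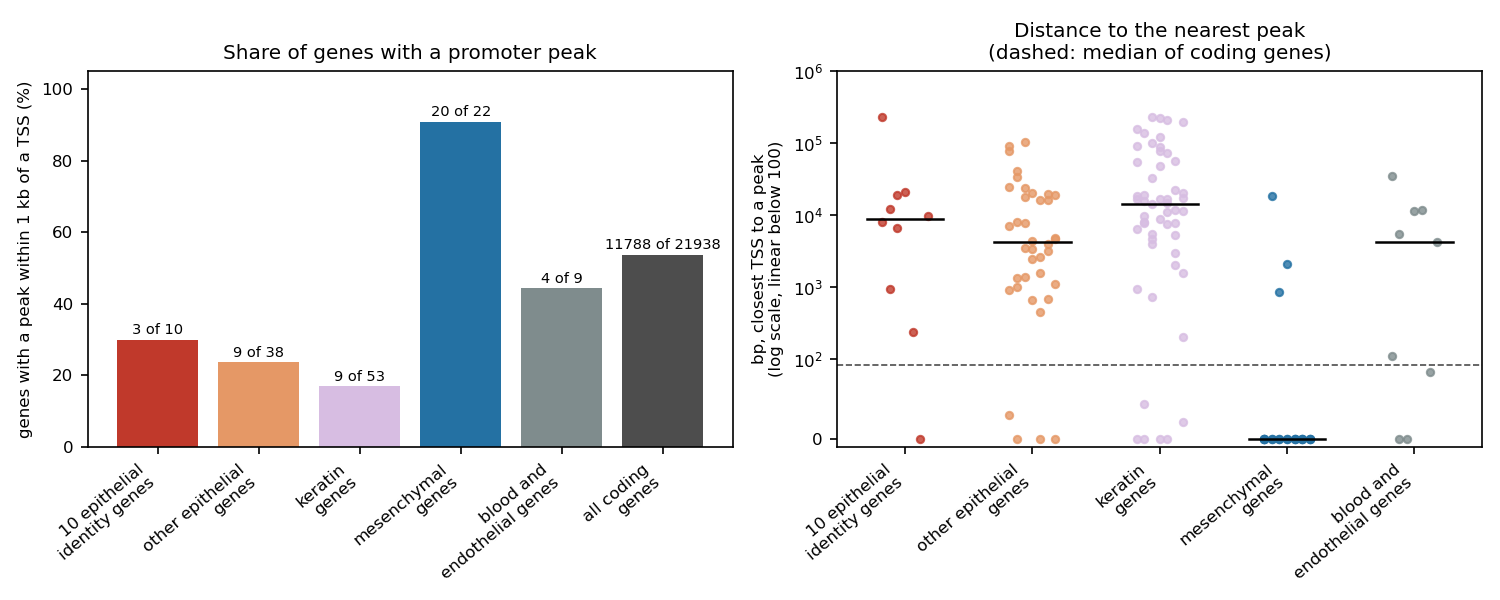
Left, share of genes with a peak within 1 kb of a TSS in each list, with counts above the bars; right, distance in bp from the closest TSS of each gene to a peak (log scale, linear below 100), points being genes, bars list medians and the dashed line the median of coding genes. The 10 epithelial genes reached 30.0% with a median distance of 8915 bp, and the mesenchymal genes 90.9% with a median of 0 bp.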

How the data were processed

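ATAC-seq of 1 library of parental NIH-3T3 cells was analysed as deposited. Read pairs had been mapped by the authors to mm10 with STAR, limited to unique hits on the autosomes, X and Y, and cleared of duplicates with Picard, and MACS2 called peaks on the whole fragments of this library alone. The submitters' processing notes give STAR 2.5.3a and MACS2 2.1.1.20160309. For ChIP-seq the authors dropped input and blacklisted peaks, and for ATAC-seq they point to the same procedure. The deposited fold is a ratio of summit pileup to expected pileup, the deposited −log10 p is that of a Poisson test at the summit, the deposited −log10 q its adjusted form, and the deposited score is derived from the −log10 q. The total number of reads is not part of the peak list, so depth was read at each summit.

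Fragments at the summit were solved from fold and −log10 p by bisection, which gave whole numbers within 0.02 for all but 2 of 63456 peaks. The script was tested on simulated data. Coordinates are mm10, counted from 1, and genes and transcript starts are those of GENCODE M21 on GRCm38. Peaks were placed by their interval: within 1 kb of any TSS of a gene, else overlapping the gene, else within 25 kb of it. Motifs were counted on either strand within 50 bp of summits and in RefSeq promoters of 300 bases on GRCm38.p6, a table that held 6 of the 10 genes. Poisson intervals are exact at 95% and cover counting error only. No samples were compared and no test was made. A single flanking peak is counted among those of the gene windows but is not reported or drawn here.

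Named were all 10 genes with every promoter and body peak, the highest flanking peak and those at another gene's TSS, and in each comparison list the 5 genes with the highest promoter fold, or those without a peak if 5 or fewer. The genes and lists were chosen with earlier results of these data known. Alternatives were stricter q or fold, other distances to the TSS, other flanks, summits in place of intervals and other CpG ratios. Starts of protein-coding transcripts and of RefSeq were added after seeing the data. The scripts ran under Python 3.11.15 with matplotlib 3.10.9, SciPy 1.17.1, pandas 2.3.3 and NumPy 2.4.6.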

Additional observations from a re-analysis of the deposited data

How the results depend on the processing

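Of 50 values recomputed under other settings, 39 stayed within 1.5 times the reported count and 11 did not. The 3 epithelial genes with a promoter peak became 1 (Krt14) where the peak had to overlap the TSS, and 1 with RefSeq starts. The same overlap rule left 3 of the 38 other epithelial genes and 4 of the 53 keratin genes, in place of 9 each. A distance of 500 bp left 5 other epithelial genes, and one of 5 kb gave 22 of them and 14 keratin genes. With a flank of 10 kb, 5 of the 10 genes had a flanking peak in place of 9, and their windows held 31 peaks in place of 49. A fold of at least 5 left 28 of the 49. A CpG ratio of 0.5 made 5 genes CpG-rich in place of 3, adding Krt18 and Esrp1.

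These differences come from the rule used in each case, since every setting started from the same called peaks. Limits on q or fold dropped some of those peaks. At a q of 1e-05 or a fold of 5, Krt8 lost its promoter peak and Krt14 kept its own. Grhl2 kept the peak of fold 5.40 near a non-coding transcript start and lost that of fold 3.94 near a protein-coding start. The mesenchymal count ran from 16 to 21 of 22. Peaks with few fragments, such as that of 11 near Epcam, could be missed in a shallower library, and weaker accessibility at the genes without a peak was not detectable at this depth. No paired analysis was possible because the peaks of a single library were used.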

Other observations

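Genes of blood and endothelial cells, 9 in all, were looked at as a comparison outside both programs, and are named although no rule for named genes covered them. None of the 4 blood genes (Ptprc, Cd3e, Cd79a and Itgam) had a promoter peak. Of the 5 endothelial genes, 4 had one, namely Cdh5 (fold 12.8, −log10 q 84.2), Pecam1 (8.40), Vwf (6.33) and Tek (3.58), and Kdr had none. The share with a promoter peak was 53.7% of all coding genes and 29.0% of CpG-poor ones, and lists of 4 and 5 genes are too small to set against it. The peaks of Cdh5 and Vwf lay at starts of other transcripts, the gene start itself being 2394 bp and 5449 bp from the nearest peak. Only 2 of the 5 genes, Pecam1 (534 bp) and Tek (111 bp), had a peak within 1 kb of the gene start, beside 48.9% of coding genes. Cdh5 encodes VE-cadherin, the endothelial counterpart of E-cadherin, and its peak at the other start was higher in fold than any of the 19 promoter and body peaks of the 10 epithelial genes. All 4 of these endothelial genes have CpG-poor starts, from 0.19 in Vwf to 0.32 in Tek, and none had its gene start inside a peak. None of the 9 blood and endothelial genes did, beside 42.5% of coding genes. Of the 53 keratin genes, 43 had a peak neither at a TSS nor in the body, beside 35.6% of coding genes. Keratin genes are short and their starts CpG-poor, so the 2 shares are not alike. Among genes of like length to Krt8, Krt18, Krt5 and Krt14, only 13.1%, 5.91%, 9.53% and 6.85% had a body peak.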
